A study of Mus musculus with 16 samples.

Results

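The proteins of 39 genes carry nascent chains into the endoplasmic reticulum (ER), cut and glycosylate them there, and fold them, and the RNA of these genes was described in nuclei of the mouse dentate gyrus (DG). The genes are 39 of the 32285 genes of the matrices and fall into 5 groups by role, with 6 genes for signal recognition, 9 for the translocon, 5 for the signal peptidase, 9 for the oligosaccharyl transferase and 10 for folding. They were chosen by their roles with the RNA results of V321L against WT mice known, so that the differences between genotypes below are a description and were given no test of their own. The nuclei came from frozen microdissected DG of 4 WT mice (VV) and 4 mice homozygous for the V321L substitution in *Nrg1* (LL), with 2 females and 2 males of each genotype, called F1, F2, M1 and M2. *Nrg1* encodes the growth factor neuregulin 1, V321L lies in its transmembrane domain, and the labels name no further allele or agent. The RNA and the accessible chromatin of each nucleus were sequenced with 1 10x Multiome library per mouse, and the age of these mice was not given in the sources used here.

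A protein that will be secreted or held in a membrane starts with a signal that the signal recognition particle binds as it leaves the ribosome. The particle docks at its receptor on the ER, the Sec61 channel takes in the chain, the signal peptidase removes the signal, and the oligosaccharyl transferase attaches a glycan to asparagines. Chaperones, lectins and disulfide isomerases of the lumen then fold the chain. In neurons this route supplies receptors, ion channels, adhesion molecules, neuropeptides and membrane-bound growth factors such as neuregulins.

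Granule cell-like nuclei (GCs), the principal neurons of the DG, were the largest class. They were named by clusters whose marker genes led, with 1333 to 2457 GCs per WT mouse and 826 to 1227 per V321L mouse, and 0.664% of WT and 0.549% of V321L nuclei were left unnamed. The libraries held 4326426 to 14624265 RNA unique molecular identifiers (UMIs) in WT and 15505354 to 23582057 in V321L mice, and the summed GCs of a mouse held 1699438 to 4665292 and 3078570 to 5614036. Several properties of the GCs moved with genotype. The median UMIs per GC of a mouse were 1040 to 1929 in WT and 3139 to 4650 in V321L, the median mitochondrial share was 0.0679% to 0.136% and 0.299% to 1.08%, and the share of UMIs from cytosolic ribosomal protein genes was 0.103% to 0.176% and 0.926% to 1.94%. Free RNA, the RNA outside nuclei that enters droplets, made up an estimated 7.96% to 15.3% of the UMIs of WT GCs and 8.87% to 17.6% of those of V321L GCs. The 9 GC markers summed to 8184 to 9709 CPM (UMIs scaled to a common library total) in WT and 5325 to 6143 CPM in V321L GCs. The 12 markers of other excitatory neurons summed to 243 to 301 CPM in WT and 145 to 185 CPM in V321L GCs, the 8 markers of neuroblasts to 72.7 to 90.0 and 90.9 to 109 CPM, and the summed levels of the other 8 marker lists, at most 511 CPM, overlapped between genotypes. WT and V321L GCs also filled different clusters, with 50.4% to 54.9% of WT GCs of a mouse in cluster 0 against 0.0848% to 10.7% of V321L GCs, and 0.358% to 1.48% against 52.3% to 85.3% in cluster 1. The part of these differences in the results below was not tested, beyond the alternative counts that are given. Any 2 libraries shared 1 to 13 barcodes.

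Levels are CPM scaled by the trimmed mean of M values (TMM), and differences are log2 fold changes of V321L over WT ± SE from the quasi-likelihood fit of edgeR on UMIs summed per mouse. A gene was called where the p adjusted over all genes tested (Benjamini-Hochberg) was under 0.05. All 39 genes passed the filter on low counts in GCs. *Sec61b*, *Krtcap2* and *Ssr4*, at 3 to 5, 9 to 14 and 11 to 23 UMIs per WT mouse, passed it only with the V321L mice, where they were high. They are among the genes counted as higher below. In V321L GCs 26 of the 39 were called higher, beside 38.5% of all 12295 genes tested, and 4 were called lower, beside 31.6%. The 9 others were not called. The median log2 fold change of the 39 was 0.99, and that of all genes tested was 0.11. Scaling by library size alone moved the median of all genes to 0.57, a shift of 0.46, and the share of calls that were higher from 54.9% to 76.0%. The median of the 39 lay 0.88 above that of all genes under either scaling. A change of scaling moves all genes by nearly the same amount, so this distance could hardly change and nothing is read from it. For 24 of the 39 genes the lowest V321L mouse exceeded the highest WT mouse, beside 34.0% of all genes, and for 4 the highest V321L mouse stayed under the lowest WT mouse, beside 28.4%. These counts come from the contrast that was known when the genes were chosen, and nothing is read from them.

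**Figure D1:**
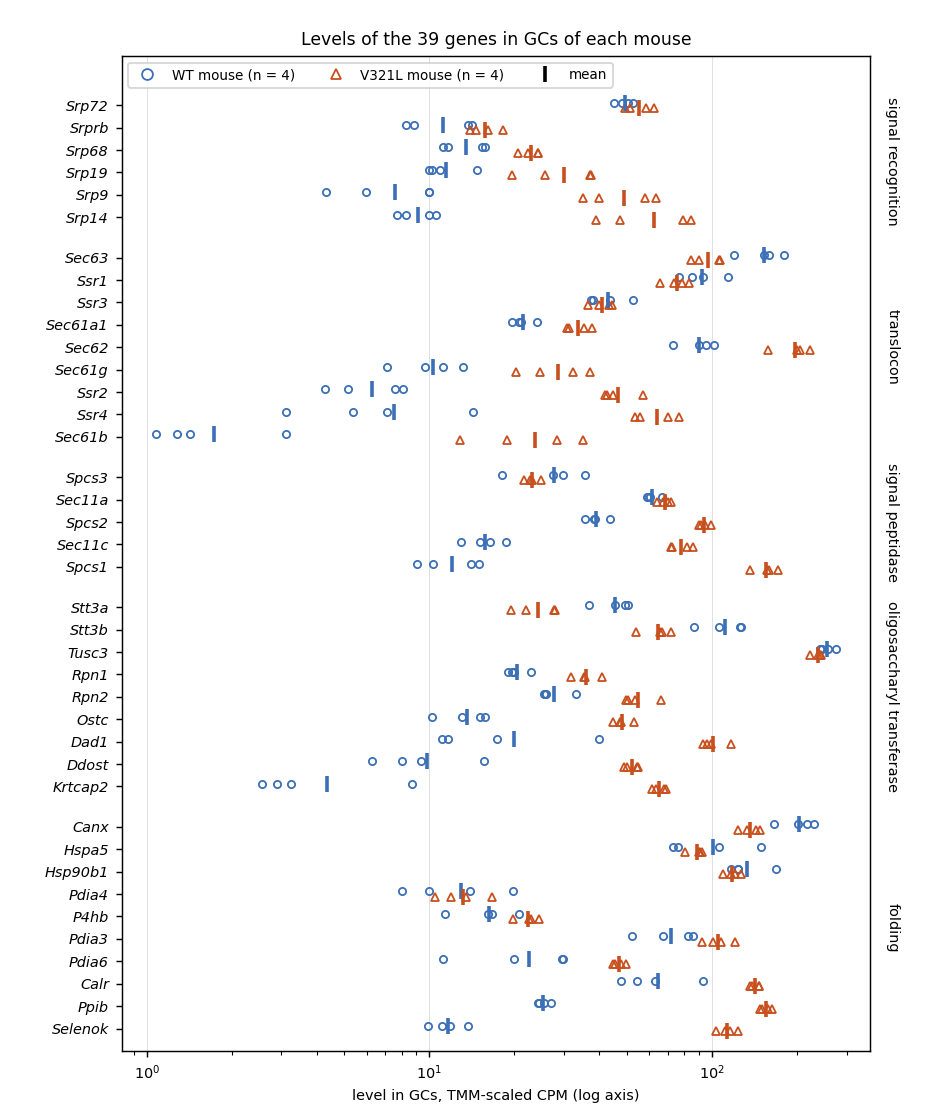
The TMM-scaled CPM of each of the 39 genes in the GCs of every mouse is on a log axis, with circles for WT mice, triangles for V321L mice and a vertical bar for the mean of the 4 mice. The triangles of *Spcs1*, *Krtcap2*, *Sec61b* and *Selenok* lie far to the right of the circles, those of *Stt3a*, *Stt3b*, *Sec63* and *Canx* lie to the left, and those of *Hspa5*, *Hsp90b1*, *Ssr3* and *Pdia4* lie among the circles.

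Of the 6 signal recognition genes, 5 were called higher and *Srp72* was not called. *Srp9* and *Srp14* encode the pair of small proteins that bind the Alu domain of the particle and slow elongation. *Srp9* was at 4.31, 5.96, 9.97 and 9.96 CPM in WT F1, F2, M1 and M2 and at 57.9, 39.979, 34.96 and 63.4 CPM in the V321L mice in the same order, a log2 fold change of 2.73 ± 0.27. *Srp14* was at 8.25, 7.67, 9.97 and 10.6 CPM in WT and 79.2, 47.3, 38.9 and 84.5 CPM in V321L (2.78 ± 0.27). In both, every V321L mouse was above every WT mouse, and M1 and F2 were the lower V321L mice. The GCs of these mice also had the lower ribosomal protein share, 0.975% (M1) and 0.926% (F2) against 1.83% (F1) and 1.94% (M2). The estimated free RNA share of the GCs was lower in these 2 mice too, 10.85% (M1) and 8.87% (F2) against 16.8% (F1) and 17.6% (M2). In the free RNA of V321L F1, F2, M1 and M2 *Srp14* was at 469, 316, 304 and 455 CPM. A link between these values was not tested. *Srp72*, a large protein of the core that holds the RNA of the particle, was at 45.2, 48.3, 50.5 and 52.7 CPM in WT and 58.3, 51.4, 49.2 and 62.3 CPM in V321L GCs (0.17 ± 0.12), and the genotypes overlapped. Its partner *Srp68* had a log2 fold change of 0.74 ± 0.16, *Srp19*, which helps assemble the particle, one of 1.37 ± 0.23, and *Srprb*, the membrane-anchored subunit of the receptor, one of 0.52 ± 0.21. The call of *Srprb* was lost without WT F1, WT F2, V321L F2 or V321L M2, where its log2 fold change was between 0.36 and 0.52, and with DESeq2, at 0.48. It was also lost with nuclei thinned to 1000 UMIs (0.71), within GC cluster 3 alone (0.70) and without that cluster (0.43), and that of *Srp68* was lost within cluster 3 alone (0.51). *Srp72* was called higher with library sizes alone (0.62), with free RNA subtracted (0.41) and within cluster 2 alone (0.76).

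Among the 9 translocon genes 6 were called higher, *Sec63* was called lower, and *Ssr1* and *Ssr3* were not called. *Sec61a1*, *Sec61b* and *Sec61g* encode the pore and the 2 small subunits of the Sec61 channel. *Sec61b* rested on few UMIs in WT GCs, namely 3, 5, 5 and 4 against 160, 124, 55 and 102, which is 1.08, 1.42, 3.12 and 1.28 CPM in WT and 34.9, 18.9, 12.8 and 28.4 CPM in V321L (3.90 ± 0.41). The groups were far apart, and the lowest V321L mouse was above the highest WT mouse. In the free RNA of the same libraries *Sec61b* was at 22.9, 14.8, 34.2 and 10.5 CPM in WT. It was at 268, 185, 200 and 258 CPM in V321L free RNA, above its level in the GCs of each V321L mouse. Free RNA made up an estimated 16.8%, 8.87%, 10.85% and 17.6% of the UMIs of the GCs of V321L F1, F2, M1 and M2. The part of free RNA in the level of *Sec61b* in GCs was not tested by itself. Both the presence and the size of its difference within GCs are therefore uncertain. *Sec61g* had a log2 fold change of 1.47 ± 0.24, which turned to -2.56 with free RNA subtracted, and the pore gene *Sec61a1* one of 0.66 ± 0.14, with its call lost for nuclei with a mitochondrial share under 0.3% (0.42) and within cluster 2 alone (0.31). *Sec62* and *Sec63* encode membrane proteins that work together at the channel, and they differed in direction. *Sec62* was at 102, 90.3, 72.9 and 95.4 CPM in WT and 201, 158, 222 and 205 CPM in V321L (1.11 ± 0.13), with no overlap. *Sec63* was at 159, 179, 119.7 and 154 CPM in WT and 84.5, 106, 107 and 90.3 CPM in V321L (-0.66 ± 0.13), and here every V321L mouse was below every WT mouse.

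The remaining translocon genes encode the 4 subunits of the translocon-associated protein complex, which sits beside the channel and helps some chains enter. *Ssr4* was at 5.38, 3.12, 14.3 and 7.07 CPM in WT and 76.4, 55.6, 53.6 and 70.1 CPM in V321L (3.25 ± 0.29), with WT M1 the highest of the WT mice and still below every V321L mouse. *Ssr2* had a log2 fold change of 2.94 ± 0.20. *Ssr1* and *Ssr3* of the same complex had log2 fold changes of -0.30 ± 0.13 and -0.08 ± 0.14, and in both the genotypes overlapped. Scaled by library size alone, *Ssr3* was called higher at 0.37, and *Ssr1* was called lower without WT F2 (-0.42), WT M1 (-0.39) or V321L M1 (-0.35).

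Of the 5 signal peptidase genes 3 were called higher and none lower. *Spcs1* and *Spcs2* encode accessory subunits of the peptidase. *Spcs1* was at 13.997, 9.09, 14.957 and 10.3 CPM in WT and 171, 157, 136 and 159.8 CPM in V321L GCs (3.73 ± 0.16), a fold of 13.3 on 24 to 39 UMIs per WT mouse and 575 to 1033 per V321L mouse. *Spcs2* was at 43.8, 38.3, 35.5 and 38.5 CPM in WT and 89.9, 91.8, 94.6 and 99.5 CPM in V321L (1.26 ± 0.11). For both, the spread within a genotype was small beside the distance between genotypes. *Spcs3*, a further subunit, had a log2 fold change of -0.29 ± 0.17, and was called lower without WT M1 (-0.48) and with thinned nuclei (-0.68).

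*Sec11a* and *Sec11c* encode the alternative catalytic subunits of the peptidase, and they did not move together. *Sec11a* was at 59.6, 66.5, 59.2 and 60.4 CPM in WT and 69.9, 71.9, 63.9 and 66.996 CPM in V321L (0.15 ± 0.10), and *Sec11c* at 12.9, 16.5, 18.7 and 15.1 CPM in WT and 81.6, 72.1, 71.8 and 85.6 CPM in V321L (2.31 ± 0.14). Taken within each mouse, the log2 ratio of *Sec11c* to *Sec11a* was -1.97 ± 0.23 for WT and 0.19 ± 0.15 in V321L (SD, n = 4 each). *Sec11a* was called higher with library sizes alone (0.60).

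Among the 9 oligosaccharyl transferase genes 6 were called higher and 2 lower. The 2 lower ones, *Stt3a* and *Stt3b*, encode the alternative catalytic subunits, of which the first works at the channel and the second can also modify chains after it. *Stt3a* was at 45.6, 50.6, 36.8 and 49.5 CPM in WT and 19.4, 27.8, 27.7 and 21.961 CPM in V321L (-0.92 ± 0.16), and *Stt3b* at 127, 126, 86.6 and 106 CPM in WT and 65.5, 66.6, 71.8 and 53.9 CPM in V321L (-0.79 ± 0.14). Both were lower in every V321L mouse than in any WT mouse. Taken within each mouse, their log2 ratio was -1.28 ± 0.16 for WT and -1.42 ± 0.23 in V321L (SD, n = 4 each), a difference within the spread between mice. *Tusc3*, an oxidoreductase subunit of the complex that holds STT3B, was at 244, 276, 242 and 257 CPM in WT and 237, 244, 223 and 242 CPM in V321L (-0.11 ± 0.09), and the genotypes overlapped. Scaled by library size alone, *Tusc3* was called higher at 0.34.

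Non-catalytic subunits made up the 6 higher genes. *Krtcap2*, a small subunit of the complex that holds STT3A, was at 3.23, 2.56, 8.72 and 2.89 CPM in WT and 63.3, 61.3, 67.8 and 68.7 CPM in V321L (4.08 ± 0.25), on 9 to 14 UMIs per WT mouse and 247 to 403 per V321L mouse. WT M1 was the highest WT mouse, and it was still far below the V321L mice. In the free RNA of the V321L libraries *Krtcap2* was at 356, 333, 329.6 and 373 CPM, above its level in the GCs of each V321L mouse. The part of free RNA in its level in GCs was not tested, so the size of its difference and its ratio to *Stt3b* below are uncertain. *Ddost*, a subunit common to both complexes, was at 9.33, 6.25, 15.6 and 8.03 CPM in WT and 49.991, 48.8, 54.5 and 54.8 CPM in V321L (2.50 ± 0.20). *Dad1*, a small common subunit, had a log2 fold change of 2.46 ± 0.29, *Ostc*, which joins the STT3A complex to the channel, one of 1.83 ± 0.16, *Rpn2* one of 0.99 ± 0.14 and *Rpn1* one of 0.81 ± 0.14, the last 2 encoding the ribophorins. The call of *Rpn1* was lost within cluster 3 alone (0.70). Relative to *Stt3b* in the same mouse, *Krtcap2* lay at -4.85 ± 1.04 on the log2 scale in WT and at 0.02 ± 0.22 in V321L (SD, n = 4 each).

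Of the 10 folding genes 6 were called higher, *Canx* was called lower and 3 were not called, with the lowest median log2 fold change, 0.51, against 0.99 to 1.26 in the other 4 groups. *Hspa5* (BiP) and *Hsp90b1* (GRP94) encode the abundant chaperones of the lumen that are used as readouts of ER stress. *Hspa5* was at 149, 106, 76.031 and 72.9 CPM in WT and 80.6, 90.8, 89.962 and 92.3 CPM in V321L (-0.20 ± 0.19), and *Hsp90b1* at 169, 117, 123 and 124 CPM in WT and 117, 109, 127 and 121 CPM in V321L (-0.17 ± 0.12). For both, the genotypes overlapped and WT F1 was the highest mouse. *Canx* and *Calr* encode calnexin and calreticulin, the membrane-bound and the soluble lectin that hold newly glycosylated chains. *Canx* was at 231, 201, 166 and 218 CPM in WT and 124, 133, 148 and 143 CPM in V321L (-0.58 ± 0.11), with no overlap, whereas *Calr* had a log2 fold change of 1.14 ± 0.17. The call of *Canx* was lost with free RNA subtracted, where it was at -0.06, within cluster 2 alone, at -0.26, and with library sizes alone, at -0.13. *Sec63* lost its call with library sizes alone too, at -0.20.

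The disulfide isomerases spread over a range. *Pdia6* had a log2 fold change of 1.004 ± 0.21, *Pdia3*, the partner of the lectins, one of 0.56 ± 0.15, *P4hb*, the founding member of the family, one of 0.47 ± 0.18 and *Pdia4* one of 0.03 ± 0.26. Of these, *Pdia4* was not called, and the call of *P4hb* was lost without WT F2, WT M1, WT M2, V321L F1 or V321L M1, where its log2 fold change was between 0.27 and 0.47, with DESeq2, at 0.43, and with nuclei thinned to 1000 UMIs, at 0.39. *Ppib*, the proline isomerase cyclophilin B, was at 25.5, 24.4, 24.3 and 26.985 CPM in WT and 148, 150.5, 158 and 163 CPM in V321L (2.61 ± 0.11). *Selenok*, a small selenoprotein of the ER membrane linked to palmitoylation and degradation, was at 11.1, 9.94, 13.7 and 11.9 CPM in WT and 116, 104, 111 and 123 CPM in V321L (3.30 ± 0.13). In each of *Ppib* and *Selenok* the 4 WT mice lay close together, the 4 V321L mice lay close together, and the groups did not overlap.

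The count of members called was repeated on other sets of nuclei. Thinned to 1000 UMIs per nucleus, 24 of the 39 genes were called higher and 5 lower, beside 34.4% and 31.0% of all genes tested. With a mitochondrial share under 0.3% it was 25 and 4, beside 32.5% and 29.8%, and with free RNA subtracted 25 and 4 of 38 tested, beside 38.8% and 28.8%. The genes called with free RNA subtracted were not all those of the main fit. *Canx* lost its call there, *Sec61g* changed direction and *Srp72* gained a call. Without cluster 3, which was led by mitochondrial genes, it was 25 and 4, beside 36.9% and 32.7%. Within cluster 2, which held GCs of both genotypes, 18 of 29 tested were called higher and 3 lower, beside 28.5% and 27.3%, and within cluster 3, 22 of 37 and 4, beside 30.8% and 27.5%. The last 3 of these alternatives were chosen after the data were seen. With library sizes alone 30 were called higher and 2 lower, beside 54.5% and 17.3%.

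The log2 fold change of the 39 genes went with their span on the genome. Span, from the first to the last base of the gene in RefSeq on GRCm38.p6, ranged from 1.84 kb for *Spcs1* to 161.7 kb for *Tusc3*. Of the 15 members under 10 kb, 13 were called higher and none lower, with a median log2 fold change of 2.73. Of all 2469 genes tested in that range 79.5% were called higher and 4.94% lower, with a median of 1.69. Of the 16 members between 10 and 30 kb, 11 were called higher and none lower, with a median of 0.61. Of 3696 genes tested in that range 52.1% were called higher and 12.2% lower, with a median of 0.53. Of the 8 members over 30 kb, 2 were called higher and 4 lower, with a median of -0.34, beside 12.8% higher and 54.9% lower of 5451 genes with a median of -0.44. Across the 39 genes Spearman's rho of log2 fold change and span was -0.65, and across 11616 genes tested it was -0.71. Both describe genes counted in the same 8 libraries, which are not independent replicates. The 2 members under 10 kb that were not called higher, named after their values were seen, were *Hspa5* (4.44 kb) and *Spcs3* (9.57 kb), with log2 fold changes of -0.20 and -0.29.

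**Figure D2:**
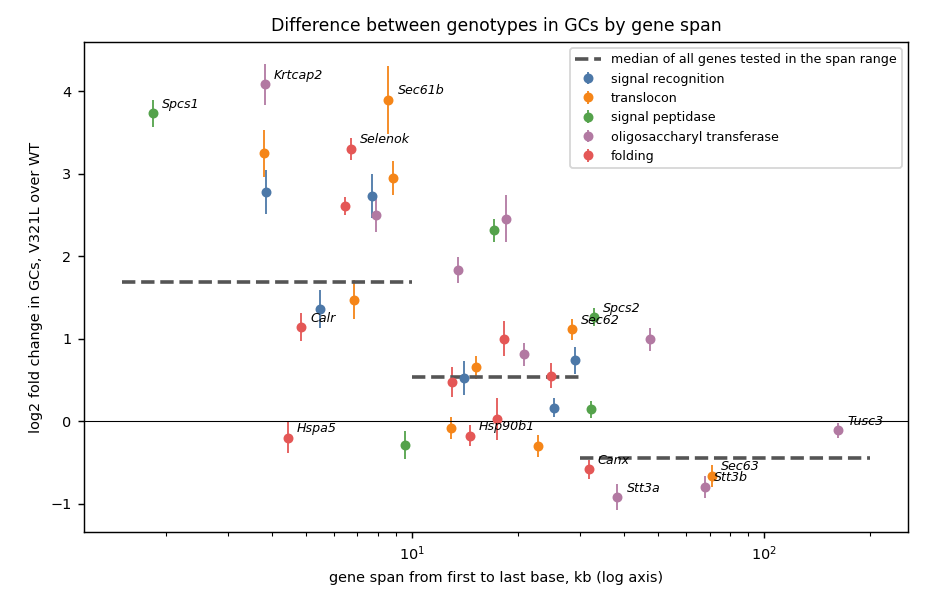
The log2 fold change of V321L over WT in GCs (bars, SE) is plotted for the 39 genes against gene span in kb on a log axis, coloured by group, with dashed lines for the median of all genes tested in 3 span ranges. Short genes such as *Spcs1* and *Krtcap2* lie near 4, genes over 30 kb such as *Stt3b* and *Sec63* lie below 0, and the medians of all genes fall in the same order.

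The other genes of the same pathways showed both directions in GCs too. Their counts stand beside 38.5% of all genes tested called higher and 31.6% called lower, with a median log2 fold change of 0.11. Of the other translocation and insertion genes, 22 of 27 listed symbols were in the matrices and 21 were tested, of which 15 were called higher and 5 lower, with a median log2 fold change of 0.79. *Emc6* (3.99 ± 0.23) and *Emc10* (2.80 ± 0.24), subunits of the ER membrane insertase, and *Tmem147* (3.49 ± 0.22), of a translocon partner complex, were the highest. *Emc2* of the same insertase (-0.77 ± 0.12) and *Srp54c* (-0.62 ± 0.20) and *Srp54a* (-0.55 ± 0.23), near-identical copies of the GTPase subunit of the signal recognition particle whose reads can be split between them, were the lowest. Of 30 other glycosylation and quality control genes, all tested, 17 were called higher and 6 lower (median 0.74). The highest were *Dpm3* (4.19 ± 0.37) and *Dpm2* (2.89 ± 0.22), small subunits of the dolichol-phosphate mannose synthase, and *Tmem258* (3.76 ± 0.25), a small oligosaccharyl transferase subunit. The lowest were the folding sensors *Uggt2* (-0.81 ± 0.12) and *Uggt1* (-0.75 ± 0.12) and the mannosidase *Edem3* (-0.75 ± 0.10). Of 38 other folding and degradation genes in the matrices 37 were tested, 19 of them called higher and 7 lower (median 0.39), from *Sdf2l1* (4.53 ± 0.49), *Fkbp2* (3.71 ± 0.29) and *Cnpy2* (2.61 ± 0.25) to *Erp44* (-1.02 ± 0.14), *Ero1l* (-0.85 ± 0.12) and *Tmx3* (-0.47 ± 0.13). Some of the highest genes were near 0 in WT GCs, with *Sdf2l1* at 0 to 1.25 CPM and *Dpm3* at 0.284 to 3.74 CPM. *Emc6* was at 1.44 to 2.49 CPM and *Tmem258* at 1.42 to 3.95 CPM there. The size of their differences is uncertain, and *Sdf2l1*, *Dpm3*, *Emc6* and *Tmem258* passed the filter only because they were high in V321L GCs. The counts and medians of these lists include them, and how many other genes passed in this way was not counted.

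The unfolded protein response, by which the ER signals a load of unfolded chains, runs through the sensors encoded by *Ern1*, *Atf6* and *Eif2ak3*. Of 15 listed genes of the response 10 were tested, and 5 had too few UMIs. Of those tested, 6 were called higher and 2 lower, beside 38.5% and 31.6% of all genes, with a median log2 fold change of 1.67. *Atf4* (2.55 ± 0.23) and *Ddit3* (2.31 ± 0.31), transcription factors downstream of *Eif2ak3*, and *Creld2* (2.44 ± 0.29) were the highest, at no more than 20.6, 12.007 and 17.2 CPM in any mouse. In WT GCs *Atf4* was at 2.51 to 3.12 CPM, *Ddit3* at 1.44 to 2.27 CPM and *Creld2* at 1.61 to 3.12 CPM, so the size of their differences is uncertain. *Atf4*, *Ddit3* and *Creld2* passed the filter only because they were high in V321L GCs, and the count and median of the response genes include them. The sensors *Atf6* (-0.81 ± 0.11) and *Ern1* (-0.69 ± 0.15) were called lower, and *Eif2ak3* was not called (-0.21 ± 0.15). *Xbp1* (2.06 ± 0.19), *Atf6b* (1.68 ± 0.20) and *Herpud1* (1.66 ± 0.19) were called higher too, and *Asns* (0.58 ± 0.27) was not called.

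Accessibility of the promoters is a readout of the same GCs that was not used to choose the genes. ATAC counts were summed over the peaks of a library that overlap 1 kb to either side of the start site, and all 39 genes had such a peak in every library, with 43 to 1218 counts per gene and mouse. None of the 39 promoters was called between V321L and WT GCs by the quasi-likelihood test of edgeR, beside 0.0153% of all 13034 promoters tested, and 1 of the 39, *Sec61a1*, had an unadjusted p under 0.05. Log2 fold changes lay between -0.16 and 0.22 around a median of 0.01, with SEs of 0.10 in the median and 0.23 at most, and the 95% intervals of all 39 lay within -0.48 and 0.47. *Sec61a1* had the largest difference, 0.22 ± 0.09 (adjusted p = 0.551). For *Spcs1*, *Krtcap2*, *Sec61b* and *Selenok* the accessibility differed by -0.15 ± 0.10, -0.16 ± 0.14, 0.01 ± 0.10 and -0.07 ± 0.09, where the RNA of the same GCs differed by 3.73, 4.08, 3.90 and 3.30. The peaks counted for *Krtcap2* differed between libraries, from 1 peak of 773 bases (V321L F2) to 2 peaks of 1405 bases in all (WT F2). Those of *Tusc3* ranged from 587 bases (V321L F1) to 1349 bases (V321L M1). *Stt3a* and *Stt3b*, lower in RNA, had accessibility differences of 0.01 ± 0.09 and -0.14 ± 0.10. A peak shared with another gene cannot be assigned to one of them, and 12 of the 39 windows held the start of another gene, such as *Glt8d1* beside *Spcs1* and *Alg2* beside *Sec61b*.

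**Figure D3:**
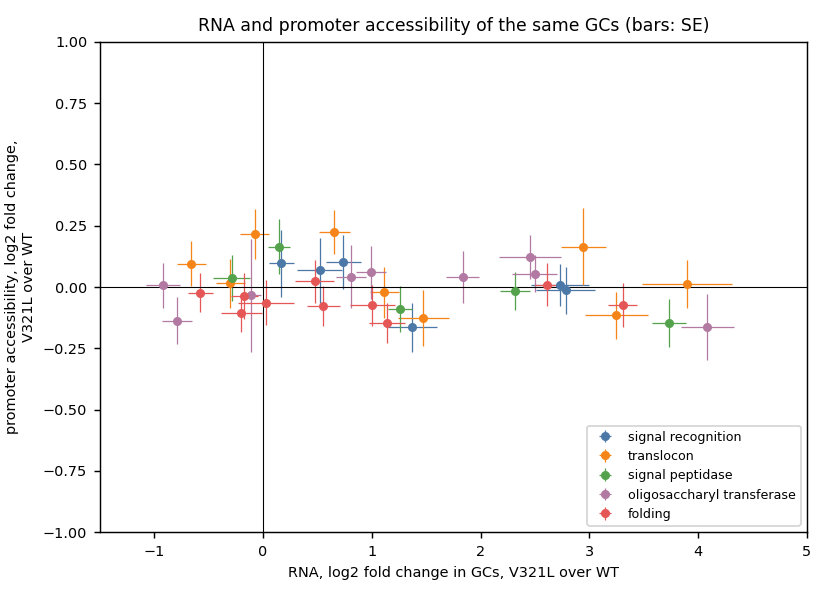
For each of the 39 genes the log2 fold change of V321L over WT in promoter accessibility (vertical axis, from -1 to 1) is plotted against that in RNA (horizontal axis, from -1.5 to 5) in the same GCs, with bars for the SE. The points spread from -0.92 to 4.08 in RNA and from -0.16 to 0.22 in accessibility.

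Promoter sequences of 31 of the 39 genes were matched by symbol in RefSeq (GRCm38.p6), from 250 bases before to 50 bases after the start. They were searched on both strands for the ER stress element, the letters CCAAT and CCACG with 9 bases between them, to which NF-Y and ATF6 are known to bind. The whole element was found in 5 members, *Hspa5*, *Hsp90b1*, *Canx*, *Calr* and *Pdia6*, all of the folding group, and in 0.137% of 27025 genes. The parts alone are common, CCAAT being found in 22 members and 41.1% of genes, and CCACG in 23 members and 35.5% of genes, on either strand. The 6 sites are shown because the other 26 members searched did not hold the whole element in this window, while 8 members had no entry. They are printed along the strand of the gene with 10 bases on either side and with both parts in capitals, so that a site on the opposite strand reads CGTGG before ATTGG. The coordinates are those of all bases printed, and the distances to the start are those of the element without the 10 bases on either side.
Hspa5, chr2:34772015-34772053, plus strand, 65 to 47 bases before the start: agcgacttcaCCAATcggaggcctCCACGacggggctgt
Calr, chr8:84847065-84847103, minus strand, 162 to 144 bases before the start: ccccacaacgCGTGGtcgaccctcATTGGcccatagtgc
Hsp90b1, first site, chr10:86705628-86705666, minus strand, 212 to 194 bases before the start: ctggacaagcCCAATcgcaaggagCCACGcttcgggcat
Hsp90b1, second site, chr10:86705523-86705561, minus strand, 107 to 89 bases before the start: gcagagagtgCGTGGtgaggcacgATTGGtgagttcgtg
Canx, chr11:50325790-50325828, minus strand, 145 to 127 bases before the start: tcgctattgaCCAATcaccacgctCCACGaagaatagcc
Pdia6, chr12:17266481-17266519, plus strand, 98 to 80 bases before the start: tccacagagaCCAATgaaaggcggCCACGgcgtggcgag
The 250 bases before the start of *Hspa5* (chr2:34771840-34772089, plus strand) hold its single whole element, in capitals, and are shown because *Hspa5* is the reference gene of this element.
Hspa5 promoter: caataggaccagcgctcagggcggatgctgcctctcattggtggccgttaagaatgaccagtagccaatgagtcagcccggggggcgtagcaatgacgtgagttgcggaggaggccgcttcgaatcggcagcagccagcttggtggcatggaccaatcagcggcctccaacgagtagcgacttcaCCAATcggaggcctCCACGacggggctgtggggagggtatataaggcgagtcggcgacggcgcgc
The 5 genes with the element took all courses in V321L GCs, with *Calr* and *Pdia6* called higher, *Canx* lower, and *Hspa5* and *Hsp90b1* not called, and their promoter accessibility differed by -0.11 ± 0.08 (*Hspa5*), -0.04 ± 0.09 (*Hsp90b1*), -0.02 ± 0.08 (*Canx*), -0.15 ± 0.08 (*Calr*) and -0.07 ± 0.08 (*Pdia6*), none of them called.

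The same genes were followed in the 6 other classes with at least 20 nuclei in at least 3 mice of each genotype. Fewer members passed the filter on low counts there, and a gene that is near 0 in WT nuclei passed only because it was high in V321L nuclei, so the counts are no support for a direction and do not speak for all 39. In other excitatory neurons 21 of 37 members tested were called higher, beside 26.7% of all genes, and *Stt3a* and *Sec63* were called lower, beside 24.7%. In GABAergic neurons it was 7 of 18, beside 20%, in astrocytes or radial glia 15 of 25, beside 28.1%, in oligodendrocytes 9 of 16, beside 26.8%, with *Tusc3* lower, beside 25.9%, in oligodendrocyte precursors (OPCs) 4 of 6, beside 14.5%, and in microglia 2 of 7, beside 28.2%. *Sec62* was called higher in 6 of the 7 classes where it was tested, GCs included, and *Ppib*, *Selenok* and *Calr* in all 6 of theirs. In OPCs *Selenok* was at 0 CPM in every WT mouse. The matching share of all genes was not counted, and nothing is read from these counts. Whether the genotypes differed more in one class than in another was not tested.

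Values per mouse follow for 4 members in 2 of these classes, chosen after their values were seen. In astrocytes or radial glia *Ppib* was at 31.6, 24.5, 20.1 and 11.2 CPM in WT F1, F2, M1 and M2 and at 361, 419.9, 242 and 374 CPM in the V321L mice. In oligodendrocytes *Selenok* was at 27.8, 9.10, 87.5 and 38.6 CPM in WT and at 455, 511, 484 and 479 CPM in V321L mice. The V321L mice were above the WT mice in both. *Sec11c* in oligodendrocytes was at 27.8, 45.5, 58.4 and 90.04 CPM in WT and 1145, 924, 1089 and 1046 CPM in V321L mice, while in GCs of the V321L mice it did not exceed 85.6 CPM. *Tusc3* went the other way in oligodendrocytes, at 167, 200.3, 263 and 141 CPM in WT and 106, 53.8, 40.3 and 88.3 CPM in V321L, without overlap. The summed WT nuclei of a mouse held only 62934 to 306056 UMIs in astrocytes or radial glia and 44277 to 149101 in oligodendrocytes. The WT levels of *Ppib*, *Selenok* and *Sec11c* given here thus rest on few UMIs, and the size of their differences is uncertain.

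**Figure D4:**
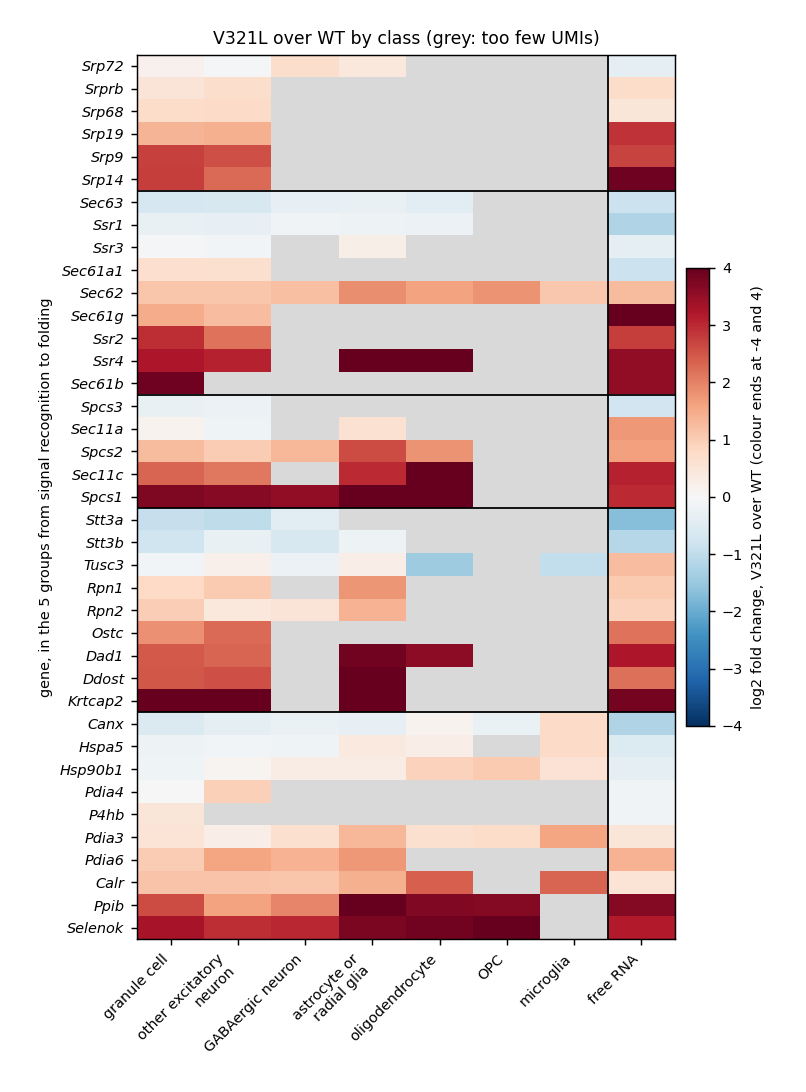
Colours give the log2 fold change of V321L over WT for each of the 39 genes (rows, in 5 groups) in GCs, the 6 other classes and free RNA (columns), with red for higher, blue for lower and grey where the gene did not pass the filter on low counts. *Spcs1*, *Selenok*, *Ppib* and *Sec62* are red in each class where they were tested, and *Stt3a*, *Stt3b* and *Sec63* are blue in GCs.

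Differences between classes within a mouse were not used to choose the genes, and GCs were compared with each other class with mouse as a block. Against other excitatory neurons 13 of the 39 genes were called, all higher in GCs, beside 39.8% of all genes. Against GABAergic neurons it was 12 of 39, all higher in GCs, beside 40.1%. The largest differences were those of *Ddost* (1.35 ± 0.30 on the log2 scale, adjusted p = 0.000137), *Spcs1* (0.96 ± 0.19), *Ppib* (0.88 ± 0.18), *Tusc3* (0.84 ± 0.13), *Ssr3* (0.78 ± 0.23) and *Sec11a* (0.75 ± 0.19) against GABAergic neurons, and of *Sec61b* (0.79 ± 0.25), *Ssr3* (0.69 ± 0.12), *Krtcap2* (0.66 ± 0.20), *Spcs2* (0.64 ± 0.13), *Ddost* (0.59 ± 0.17) and *Spcs1* (0.58 ± 0.10) against other excitatory neurons.

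Calls against astrocytes or radial glia, oligodendrocytes and OPCs went in both directions, and those against microglia were all higher in GCs. Against astrocytes or radial glia 7 of 39 were called, beside 45.4%, against oligodendrocytes 7, beside 40.0%, against OPCs 7, beside 39.3%, and against microglia 7, beside 37.2%. The share of members called was below that of all genes in each of the 6 comparisons, and this difference was not tested. *Tusc3* was higher in GCs than in astrocytes or radial glia (0.66 ± 0.15), oligodendrocytes (1.76 ± 0.27), OPCs (1.55 ± 0.22), microglia (1.59 ± 0.30) and GABAergic neurons, and it was not called against other excitatory neurons (-0.07 ± 0.11). *Stt3b* was higher in GCs than in oligodendrocytes (1.08 ± 0.21) and microglia (1.12 ± 0.31). *Spcs3* was higher than in astrocytes or radial glia (0.77 ± 0.30), and *Srp68* (1.98 ± 0.60) and *Srp72* (1.17 ± 0.35) were higher than in OPCs. Against microglia *Ssr3* (1.01 ± 0.35), *Spcs1* (0.89 ± 0.29), *Sec11a* (0.78 ± 0.30) and *Dad1* (0.78 ± 0.30) were higher as well. Other members were lower in GCs than in glia other than microglia. *Pdia4* was lower in GCs than in astrocytes or radial glia (-1.35 ± 0.24), oligodendrocytes (-1.09 ± 0.30) and OPCs (-1.03 ± 0.38), and *Selenok* was lower than in astrocytes or radial glia (-0.87 ± 0.18) and oligodendrocytes (-1.32 ± 0.22). *Sec11c* was lower than in oligodendrocytes (-2.53 ± 0.30) and OPCs (-0.67 ± 0.26), *P4hb* was lower than in oligodendrocytes (-1.16 ± 0.24), and *Ppib* was lower than in OPCs (-1.004 ± 0.21). *Rpn2* (-0.78 ± 0.16) and *Dad1* (-0.67 ± 0.21) of the oligosaccharyl transferase were lower than in astrocytes or radial glia.

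Over the 6 comparisons there were 53 calls in all, 52 with the V321L mice alone and 11 with the WT mice alone, beside 40.3%, 34.6% and 24.5% of all gene tests. The difference of *Tusc3* from oligodendrocytes was 2.55 in V321L and 0.79 in WT mice alone, and that of *Sec11c* was -2.99 and -1.54.

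*Penk* encodes the precursor of enkephalins. GCs with at least 1 *Penk* UMI (*Penk*+), 14 to 27 per WT mouse and 47 to 92 per V321L mouse, were compared with the other GCs (*Penk*-) of the same mice. In WT mice 73 of 6744 GCs were *Penk*+, or 1.08% (exact 95% interval 0.849% to 1.36%, median 1474.5 UMIs). Microglia and oligodendrocytes should lack the gene. In WT it was 1 of 162 microglia (0.617%, 0.0156% to 3.39%, median 1347.5 UMIs) and 0 of 226 oligodendrocytes (0% to 1.62%, median 930 UMIs). These classes held too few WT nuclei to decide whether the share in WT GCs lies above background. In V321L mice it was 273 of 4136 GCs (6.60%, 5.86% to 7.40%, median 3825.5 UMIs), 3 of 257 microglia (1.17%, 0.241% to 3.37%, median 975 UMIs) and 4 of 581 oligodendrocytes (0.688%, 0.188% to 1.75%, median 1104 UMIs). The intervals cover counting error only. None of the 39 genes was called by the quasi-likelihood test of edgeR, none had an unadjusted p under 0.05, and 6.10% of all 11250 genes tested were called. Log2 fold changes lay between -0.67 and 0.28, and the widest 95% interval bounds were -1.43 and 0.79. Males and females of both genotypes were compared in GCs with genotype as a covariate. None of the 39 genes was called, 2 had an unadjusted p under 0.05, namely *Dad1* (0.56 ± 0.24, higher in males) and *Pdia3* (-0.32 ± 0.13), and 0.0472% of all 12706 genes tested were called. In the WT mice alone, 2 females against 2 males, *Dad1* (1.27) and *Hspa5* (-0.75) were called, beside 0.364% of all genes tested.

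Free RNA of a library, taken from its barcodes with at most 100 UMIs, was compared with the GCs of the same library. It held 506210 to 1225780 UMIs in WT and 2383796 to 3409055 in V321L libraries. Of the 39 genes 32 were called higher in free RNA than in GCs, beside 41.8% of all 14759 genes tested, and 2 were called lower, beside 34.3%. The median log2 fold change was 1.09. All 10 folding genes were higher in free RNA, from 0.84 ± 0.15 for *P4hb* to 2.29 ± 0.11 for *Selenok*, with *Hspa5* at 1.38 ± 0.11 and *Hsp90b1* at 1.41 ± 0.10. *Sec61b* (3.58 ± 0.17) and *Krtcap2* (2.66 ± 0.13) had the largest differences. *Sec63* (-0.96 ± 0.11) and *Stt3b* (-0.57 ± 0.13) were lower in free RNA, and *Tusc3*, *Sec11a*, *Stt3a*, *Sec61a1* and *Srprb* were not called. Calls in either direction numbered 37 in the WT libraries alone, beside 71.3%, and 35 in the V321L libraries alone, beside 85.1%.

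**Figure D5:**
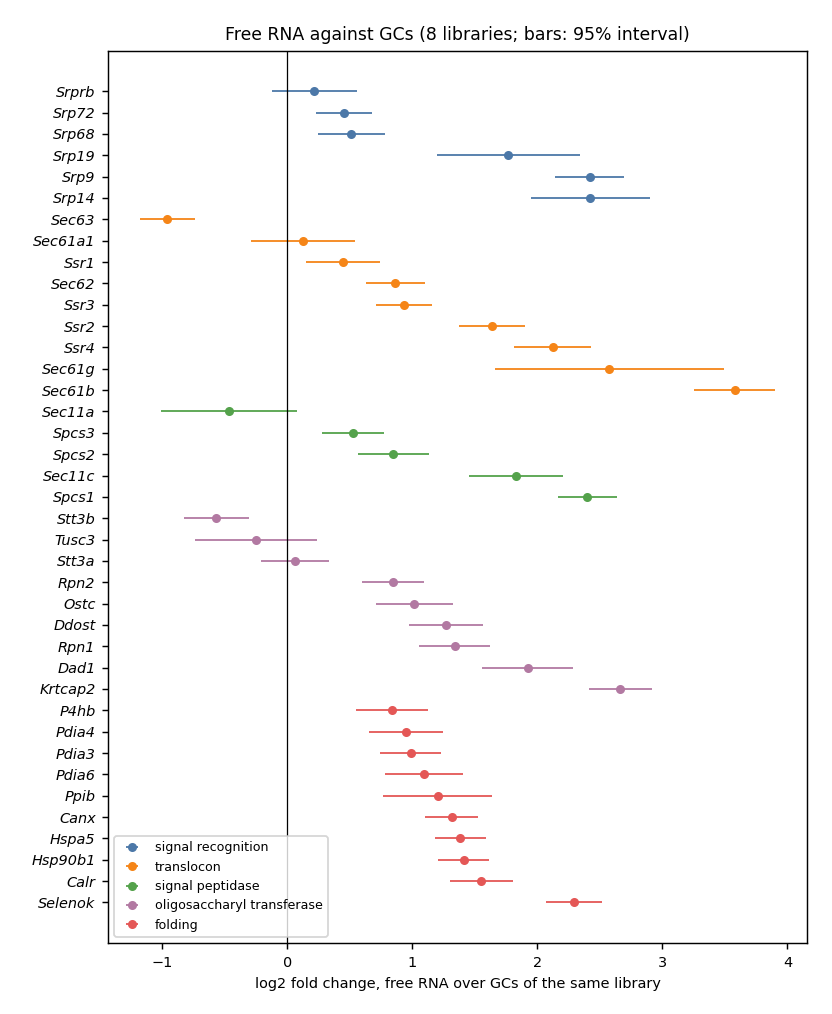
The log2 fold change of free RNA over GCs of the same library is plotted for each of the 39 genes with its 95% interval (8 libraries), coloured by group. All folding genes lie to the right of 0, *Sec61b* lies farthest right, and *Sec63* and *Stt3b* lie to the left.

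The free RNA of the 2 genotypes differed as well, in a comparison added after the data were seen that describes the contrast known when the genes were chosen. In V321L free RNA 25 of the 39 genes were called higher, beside 37.6% of all 11087 genes tested, and 9 were called lower, beside 37.6%. *Spcs1* was at 97.6, 62.9, 84.6 and 66.046 CPM in the free RNA of WT F1, F2, M1 and M2 and at 612, 601, 521 and 697 CPM in that of the V321L mice. *Krtcap2* was at 25.3, 19.971, 37.8 and 18.013 CPM in WT and 356, 333, 329.6 and 373 CPM in V321L. Neither gene overlapped between genotypes. *Hspa5*, not called in GCs, was at 324, 346, 184 and 243 CPM in WT and 166, 212, 203 and 172 CPM in V321L free RNA, where it was called lower (-0.56 ± 0.18), and *Canx* was at 664, 711, 378 and 596 CPM in WT and 243, 284, 273 and 233 CPM in V321L (-1.19 ± 0.19). *Sec61a1* was called higher in GCs and lower in free RNA (-0.86 ± 0.21). Of the 26 genes called higher in V321L GCs 23 were called higher in V321L free RNA, and the 4 called lower in GCs were all called lower there. The matching share of all genes was not counted, and nothing is read from these counts. GCs and free RNA come from the same libraries, so that these calls are not independent of each other.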

How the data were processed

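The deposited files held whole-number counts of RNA UMIs per gene and of ATAC cut sites per peak for each barcode, made by the authors with Cell Ranger ARC 2.0.2 on mm10, with no normalization. Seurat and Signac are named in the submitters' processing notes without a version. Nuclei with over 500 UMIs, over 250 genes and at least 500 ATAC counts, within the upper limits of the study, were kept, and those with a doublet score over 2 SD above the library mean were removed, leaving 16406. They were clustered with scanpy 1.11.5 and leidenalg 0.10.2 and named by markers, with the naming threshold set after the data were seen. UMIs were summed per mouse and class (at least 20 nuclei) and tested with edgeR 4.0.16 (quasi-likelihood, TMM, filterByExpr, Benjamini-Hochberg over all genes tested). DESeq2 1.42.0 was an alternative, beside leaving out each mouse, a replicate block, library sizes and other filters on nuclei. The SE is the absolute log2 fold change divided by the square root of the F statistic of the quasi-likelihood test. Intervals of log2 fold changes are nominal 95% intervals from this SE and the normal distribution. They make no allowance for the small number of mice and may be too narrow.

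The members and gene lists were chosen with earlier results of these data known. Values in every mouse were given for the 2 members of each group with the highest mean CPM, the 2 with the largest absolute log2 fold change, and 3 pairs (*Stt3a* and *Stt3b*, *Sec11a* and *Sec11c*, *Hspa5* and *Hsp90b1*). In other comparisons at most the 6 called members with the largest difference were named, and of other lists the 3 highest and the 3 lowest. Of the unfolded protein response genes, all those tested were named. On simulated counts with 200 genes changed by 1 on the log2 scale, 62.0% were called in GCs between genotypes, 56.0% in OPCs, 33.0% between GCs and oligodendrocytes, 35.5% between *Penk*+ and *Penk*- GCs and 77.0% in promoters. The dispersion was set at 0.05 in every simulation and not taken from the data. These shares hold for that setting and do not give the sensitivity of the tests above.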

Additional observations from a re-analysis of the deposited data

Results flagged for a closer look

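In 7 of 156 groups of 4 mice, levels or promoter accessibility of a member, 1 mouse lay apart from the other 3 past Dixon's 95% limit, where chance gives about 1 in 20 groups. In WT GCs *Sec61b* was at 3.12 CPM in M1 (others 1.08 to 1.42), *Krtcap2* at 8.72 CPM in M1 (others 2.56 to 3.23), *Sec11a* at 66.5 CPM in F2 (others 59.2 to 60.4), *Rpn2* at 33.0 CPM in F1 (others 25.6 to 25.8) and *Hsp90b1* at 169 CPM in F1 (others 117 to 124). In V321L GCs the promoter accessibility of *Ssr3* was 61.2 CPM in F1 (others 79.0 to 81.9) and that of *Krtcap2* 81.7 CPM in F2 (others 105 to 106).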

How the results depend on the processing

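Members called lower in V321L GCs numbered 2 with library sizes in place of TMM, against 4. Calls between GCs and other classes numbered 11 in WT mice alone, against 53, and calls between sexes 2 in WT mice alone, against 0. *Sec61g* reversed to -2.56 with free RNA subtracted, and *Ssr3* (0.37) and *Tusc3* (0.34) reversed with library sizes. The causes were not tested. Leaving out each mouse in turn gave 29 to 31 members called in GCs, 24 to 25 higher and 4 to 6 lower, 55 to 76 calls between genotypes in other classes, 44 to 54 between classes, 34 in free RNA against GCs, and 0 for *Penk*, sex and promoters. The matching shares of all genes are not set beside these counts, and nothing is read from them. Of the values of single members in GCs under the alternatives, 785 kept their direction and side of the threshold, 23 values of 7 genes lost their call (*Srp68*, *Srprb*, *Sec61a1*, *Sec63*, *Rpn1*, *Canx*, *P4hb*), 9 values of 4 genes gained one (*Srp72*, *Ssr1*, *Spcs3*, *Sec11a*), 25 moved with no test and 3 reversed.

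The labels do not say whether mice of the same replicate number were paired, and the main fit did not pair them. The deviations of same-numbered WT and V321L mice correlated at 0.05 (F1), 0.30 (F2), -0.14 (M1) and 0.04 (M2). Those of mice with different numbers correlated at -0.33 to 0.31, and these values cannot decide whether the mice were paired. With the replicate block 30 members were called in GCs, 26 higher and 4 lower, beside 37.3% and 30.2% of all genes tested. There were 79 calls in the other classes against 61, with no share of all genes beside them, and 0 promoters were called. Nothing is read from these counts.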
